A study of Rattus norvegicus with 6 samples.

Results

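The matrix metalloproteinases (MMPs), the ADAM and ADAMTS metalloproteases, the tissue inhibitors of metalloproteinases (TIMPs) and the MMP inducer basigin were examined in H9c2 cells, a rat embryonic heart line of myoblasts that is widely used as a culture model of cardiac muscle. Members were all protein-coding genes on the array whose accession maps to a rat symbol of these families, and each was represented by its brightest probe. This rule gave 51 of the 13888 coding genes with a symbol. It uses names only and no difference between groups. The gene Reck, the ADAM genes Adam10 and Adam17, and other family genes whose accession did not match were not analysed here.

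The treated group was put through hypoxia/reoxygenation (H/R): cells deprived of serum and glucose spent 1 h in 1% oxygen, 5% carbon dioxide and 94% nitrogen and then 3 h at normal oxygen. The control group is labelled only as control. Each group has 3 labelled samples, and the stock cultures of both had 10% serum and glucose at 4500 mg/L. The labels do not say which medium or oxygen level the control cells had during the experiment, so low oxygen and the loss of serum and glucose cannot be told apart. The question of the design was which transcripts change in level after H/R.

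MMPs are zinc-dependent enzymes that cut collagens and other proteins of the extracellular matrix, either as secreted proteins or, in the membrane-type MMPs, at the cell surface. ADAMs sit in the membrane and release growth factors, cytokines and receptors from the cell surface, and ADAMTS enzymes are secreted relatives that act on proteoglycans, procollagens and fibrillin-rich matrix. TIMPs block the active site of these enzymes. In the heart, this balance of proteases and inhibitors is known for its part in matrix turnover after ischaemic injury.

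Signals were read in 1 colour and are given here as scaled signal, the background-corrected signal of the probe with the 75th percentile of each array set to 1000. A probe's scanner flag says whether it is well above background, and probes so scored in all scans of H/R, of control or of both were tested. The scaled signals of different genes cannot be compared, because probes differ in brightness. The headers place replicates 2 and 3 of a group at the same slide position in 2 scans. The median gap between their log2 values was 0.0203 (H/R) and 0.0204 (control), while other pairs of files from the same group differed by 0.118 to 0.136. They were therefore averaged and counted as 1 array, so that n = 2 arrays per group, which limits the precision of every value. In what follows, array 1 is replicate 1 and array 2 is replicates 2 and 3. Nothing in the labels assigns the arrays to separate cultures. The p-values therefore cover the spread among these arrays alone, and that spread may be technical. Slide 1 carried all 4 arrays at different positions, and position and group cannot be told apart.

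Per scan, the scanner scored 58.4% to 71.1% of 42136 spots other than controls as well above background and 0 as saturated. Of the myoblast markers, 7 of 8 (among them Myod1, Myog, Des and Cdh15) were well above background in every scan, and Chrna1 in the H/R scans alone. All 5 fibroblast markers on the array were also well above background in every scan, so detection does not single out myoblasts. The treatment text of the labels names the cortex of mice as the source of RNA, and of the neuronal and astrocyte markers Rbfox3 and Slc17a7 were not well above background in any scan, Syt1 was in 1 control scan, and the astrocyte marker Gfap was in all 6. Among leukocyte markers Csf1r, Cd68 and Aif1 were well above background in all 6 scans, and Ptprc, Adgre1 and Itgam in 0. The endothelial markers Pecam1 and Cdh5 were so in 0 scans as well, while Tek was in all 6. Of 5 fibroblast markers tested, 2 rose (Lum and Dcn) and 0 fell. The summed scaled signal of all 5 was 29378 to 33119.5 in H/R scans, against 23004 to 29099 in control scans. Most of it was Col1a2, which overlapped and did not pass (28666 to 32359 in H/R scans, 22563 to 28782 in control scans). Because probes differ in brightness, such sums follow their brightest probes and do not measure the share of a cell type. Of 8 myoblast markers tested, 2 rose (Tnnt2 and Chrna1) and 1 fell (Myod1), with sums of 29635 to 34162 in H/R scans, against 28206 to 31688 in control scans. Chrna1 entered the test through its H/R scans alone, the group where it is high, and gives no support to that count. Of 3 endothelial markers on the array 1 was tested and rose (Tek), with sums of 96.3 to 116 in H/R scans, against 50.6 to 54.9 in control scans. Of 6 leukocyte markers 3 were tested and 0 passed in limma, 1 of them at an unadjusted p under 0.05 (sums of 327 to 375 in H/R scans, against 288 to 452 in control scans), and of 4 neuronal and astrocyte markers 1 was tested and did not pass (sums of 103 to 109 in H/R scans, against 100.4 to 127 in control scans). The part that a shift in cell makeup may have in the results below was not tested, and in such bulk samples fewer cells of a type and less RNA per cell cannot be told apart.

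After H/R most of the changes in these families were rises. Of the 51 members 36 were tested, and 15 of them rose while 2 fell, with Benjamini-Hochberg adjustment of limma's p over 15899 probes and a threshold of 0.05. Among all 10001 coding genes tested, 16.2% rose and 9.62% fell, 25.8% in all. The counts by role below are to be read beside these shares. Of the 15 rises, 3 (Mmp9, Adam11 and Adam23) are of probes that entered the test through their H/R scans alone, the group where they are high, and these 3 give no support to the count. With only probes well above background in all 6 scans, 31 members were tested, of which 13 rose and 3 fell, against 27.5% of 9421 coding genes that changed in either direction. The median difference of the tested members was 0.21 on the log2 scale, against 0.07 for all tested coding genes. In 18 tested members every H/R scan lay above every control scan, in 8 every H/R scan lay below, and in 10 the groups overlapped. The 18 include Mmp9, Adam11 and Adam23, and the 8 include Adam30, which entered the test through its control scans alone. These members give no support to those counts, and the median includes them too. Of all coding genes tested, 38.2% lay wholly above and 27.9% wholly below. The number of rises was 8 without H/R array 1 and also without both scans of H/R array 2, 11 without both scans of control array 2 and 9 without control array 1. After another background correction (normexp) 0 members passed in limma, although all 17 changed members kept their direction (10 of 36 members had an unadjusted p under 0.05). The share of all coding genes that passed after normexp, or with an array left out, is not given here. These counts therefore do not tell the members from other genes.

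**Figure D1:**
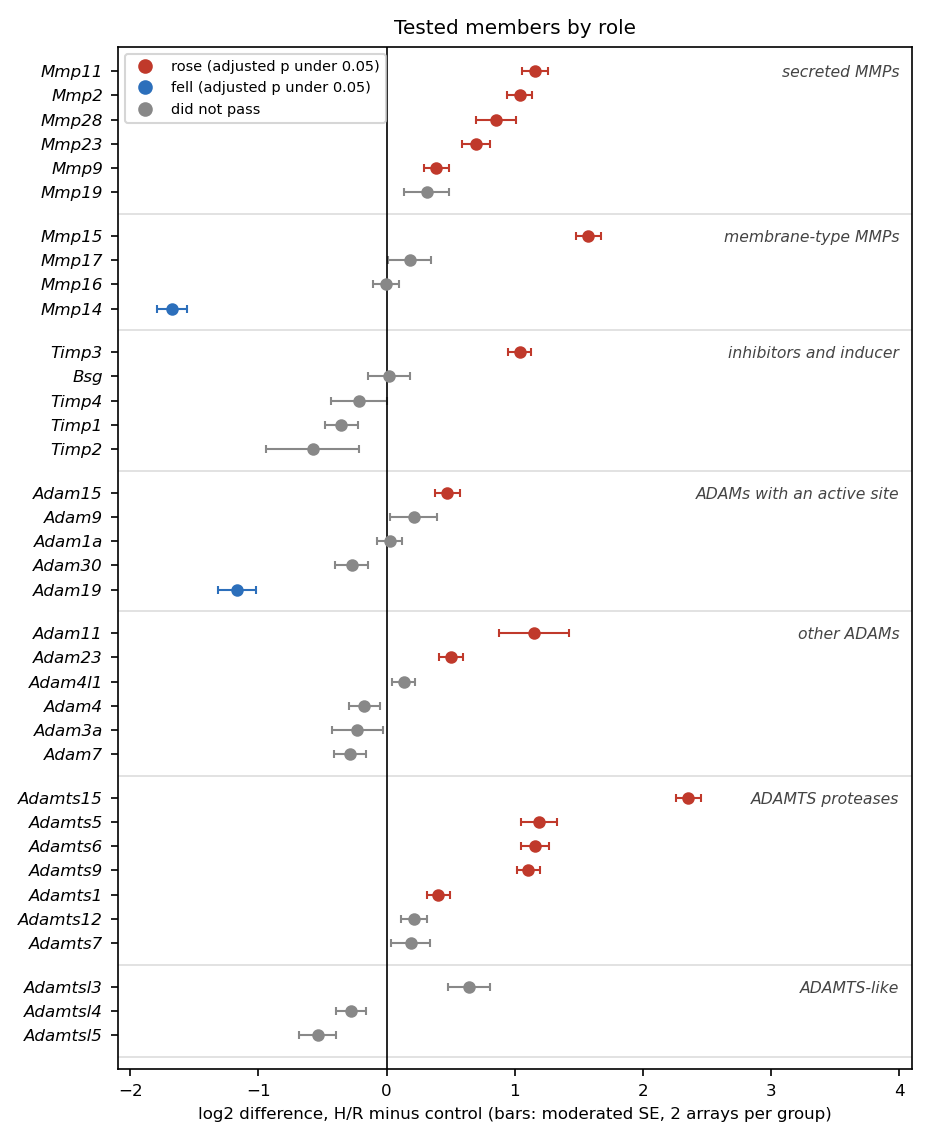
Log2 difference between H/R and control cells for the 36 tested members, grouped by role, with the moderated standard error as bars (2 arrays per group) and colours for members that rose, fell or did not pass. Adamts15 has the largest rise at 2.36 and Mmp14 the largest fall at -1.67.

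Of the 16 secreted MMPs on the array 6 were tested, 5 rose and 0 fell, with a median difference of 0.78. Of all coding genes tested, 16.2% rose and 9.62% fell. The other 10 were too dim, and 9 of them belong to 1 stretch of the genome. In the RefSeq annotation of the GRCr8 assembly, Mmp13, Mmp12, Mmp1b, Mmp3, Mmp1, Mmp10, Mmp8, Mmp27, Mmp20 and Mmp7 are 10 adjacent protein-coding genes on chromosome 8. This cluster holds the collagenases (Mmp1, Mmp8, Mmp13), the stromelysins Mmp3 and Mmp10, the macrophage elastase Mmp12, the matrilysin Mmp7 and the enamel protease Mmp20. Of its 9 genes that matched a probe, 8 were scored well above background in none of the 6 scans. Their scaled signals lay between 0.958 and 5.03. The collagenase gene Mmp13 had 1.95, 1.11 and 1.30 in H/R replicates 1 to 3, against 1.89, 1.64 and 1.56 in control replicates 1 to 3, and Mmp3 had 2.01, 1.11 and 1.24 in H/R cells, against 1.99, 1.75 and 1.70 in control cells. Both genes overlapped between the groups at the level of background. In Mmp12 and Mmp20 every H/R scan lay above every control scan, but no scan was scored well above background and no fold is given. Mmp7 had 3.76, 4.50 and 3.65 in H/R scans, of which 1 was scored well above background, against 1.68, 1.42 and 1.42 in control scans, of which 0 were. All its H/R scans were higher, but no fold is given because its H/R mean did not exceed the dimmest control signal scored well above background.

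**Figure D2:**
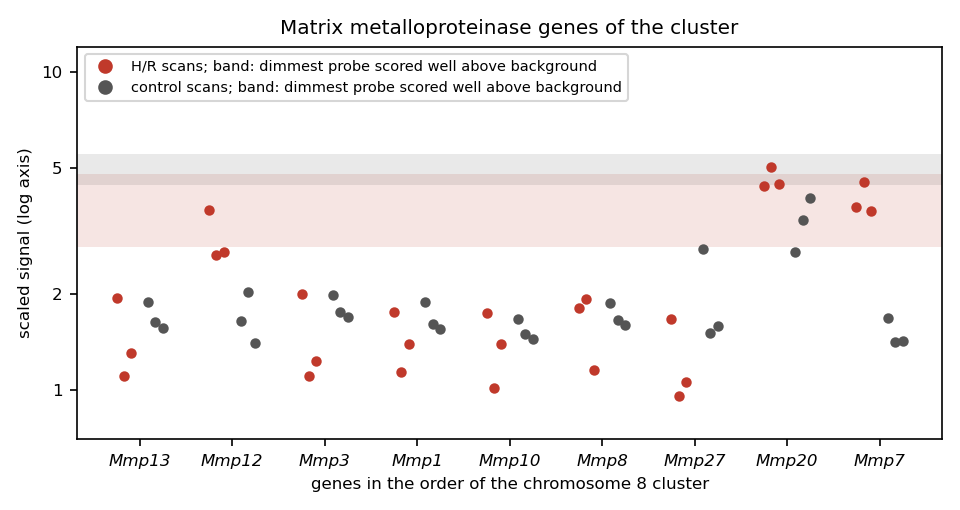
Scaled signal on a log axis for the 9 measured MMP genes of the chromosome 8 cluster, in their order along it, with 3 H/R and 3 control scans per gene. Bands span the dimmest probe scored well above background in each scan of a group, and all points lie between 0.958 and 5.03, below the upper edge of the control band at 5.51. The highest point, Mmp20 in H/R replicate 2, lies above the upper edge of the H/R band at 4.80.

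The promoters of these genes are shown because the family's textbook control element, a binding sequence of the transcription factor AP-1, lies in most of them. The letters TGAGTCA were searched on both strands, so that TGACTCA counts too, in the 250 bases before the RefSeq start of each gene (GRCr8). They were present in 6 of the 9 cluster genes, against 4.05% of 33469 promoters of the same length. The 120 bases before the start of those 6 follow, with AP-1 letters in capitals.
Mmp13, chr8:12782709-12782828, plus strand: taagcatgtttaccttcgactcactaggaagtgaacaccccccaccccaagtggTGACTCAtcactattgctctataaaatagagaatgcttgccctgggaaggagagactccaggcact
Mmp12, chr8:12866532-12866651, plus strand: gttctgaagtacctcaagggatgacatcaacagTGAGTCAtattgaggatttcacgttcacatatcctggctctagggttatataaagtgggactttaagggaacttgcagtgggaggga
Mmp3, chr8:12925161-12925280, plus strand: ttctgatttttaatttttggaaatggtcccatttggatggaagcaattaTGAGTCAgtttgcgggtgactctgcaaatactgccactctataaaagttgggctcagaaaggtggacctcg
Mmp1, chr8:12943333-12943452, plus strand: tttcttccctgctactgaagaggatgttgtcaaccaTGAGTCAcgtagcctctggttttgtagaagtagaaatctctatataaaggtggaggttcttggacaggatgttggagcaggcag
Mmp10, chr8:12974587-12974706, plus strand: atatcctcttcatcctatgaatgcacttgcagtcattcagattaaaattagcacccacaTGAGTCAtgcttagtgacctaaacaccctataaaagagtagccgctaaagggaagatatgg
Mmp7, chr8:13132923-13133042, plus strand: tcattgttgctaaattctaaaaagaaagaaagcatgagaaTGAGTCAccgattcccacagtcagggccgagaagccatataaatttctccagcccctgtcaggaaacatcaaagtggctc
The match began 66 bases before the start in Mmp13, 87 in Mmp12, 71 in Mmp3, 84 in Mmp1, 61 in Mmp10 and 80 in Mmp7. No match was found in this window for Mmp8, Mmp20 and Mmp27. A match is a description of the letters and not a measured site. Of the 34 members with a promoter sequence, 1 outside the cluster held the letters, Adam19, whose match began 169 bases before the start.

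Among the secreted MMPs that were detected, Mmp11 rose most. It encodes stromelysin-3, which furin-like convertases activate inside the cell. Its scaled signal was 3611, 3409 and 3432 in H/R replicates 1 to 3, against 1513, 1647 and 1648 in control replicates 1 to 3. The groups did not overlap, and the log2 difference was 1.15 ± 0.10 (moderated SE, n = 2 arrays per group here and below; 2.23-fold, limma adjusted p = 0.00435). Mmp2, which encodes the type IV collagen-degrading gelatinase A, had 115, 105 and 104 in H/R cells, against 52.9, 53.2 and 54.4 in control cells. Every H/R scan was above every control scan, and the difference was 1.04 ± 0.10 (2.05-fold, adjusted p = 0.00526). Mmp28, which encodes epilysin, had 40.5, 36.6 and 34.7 in H/R cells, against 18.6, 21.3 and 26.4 in control cells, a rise of 0.85 ± 0.16 (adjusted p = 0.022) in which the control scans differed among themselves more than the H/R scans did. Mmp23, which encodes a membrane-tethered MMP released by convertases, had 310.4, 351 and 360.4 in H/R cells, against 202, 209 and 208 in control cells, a rise of 0.70 ± 0.11 (adjusted p = 0.016). The gelatinase B gene Mmp9 was close to background. It had 8.52, 8.20 and 8.19 in H/R scans, all 3 well above background, against 6.17, 5.96 and 7.32 in control scans, 1 of which was, with a difference of 0.39 ± 0.10 (adjusted p = 0.0465). It entered the test through the H/R scans alone, and with only probes well above background in all 6 scans 4 of 5 secreted MMPs rose. For Mmp19 the groups overlapped, and its difference of 0.31 ± 0.18 was not called (adjusted p = 0.246). The calls of 3 of these genes were lost when some arrays were left out. The difference of Mmp28 no longer passed at 0.95 without both scans of H/R array 2, 0.76 without H/R array 1 and 0.68 without control array 1, that of Mmp23 at 0.60 without both scans of H/R array 2, 0.80 without H/R array 1 and 0.67 without control array 1, and that of Mmp9 at 0.42 without both scans of H/R array 2, 0.44 without both scans of control array 2, 0.36 without H/R array 1, 0.34 without control array 1 and 0.31 without control replicate 2. Mmp9 was also lost with the replicate number as a block (adjusted p = 0.0646), and its difference was 0.12 under quantile scaling and in a fit of the authors' deposited table. Under median scaling Mmp9 did not pass, at 0.26, and in the fit of the authors' table Mmp28 did not pass, at 0.70.

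The membrane-type MMPs moved in opposite directions. Of 4 tested, 1 rose, 1 fell and 2 did not pass, with a median difference of 0.09. Mmp14 encodes MT1-MMP, the cell-surface collagenase that activates pro-MMP2 together with TIMP2. Its scaled signal was 2679, 2504 and 2516 in H/R replicates 1 to 3, against 7686, 8889 and 8915 in control replicates 1 to 3. All H/R scans were far below all control scans. Mmp14 fell by 1.67 ± 0.12 on the log2 scale, with control 3.19-fold higher (adjusted p = 0.00282), rank 52 in size among the falls of the 10001 coding genes. Mmp15, which encodes its close relative MT2-MMP, had 559.9, 556 and 559.7 in H/R cells, against 196, 181 and 178 in control cells. The 3 H/R scans were nearly equal and all above the controls, and Mmp15 rose by 1.57 ± 0.10 (2.98-fold, adjusted p = 0.00225). Mmp16, which encodes another transmembrane member, had 3007, 2741 and 2727 in H/R cells, against 2833, 2914 and 2933 in control cells, a difference of -0.01 ± 0.10 with overlapping groups (adjusted p = 0.974). Mmp17, whose protein is held in the membrane by a lipid anchor, showed a difference of 0.18 ± 0.17 that was not called (adjusted p = 0.471).

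**Figure D3:**
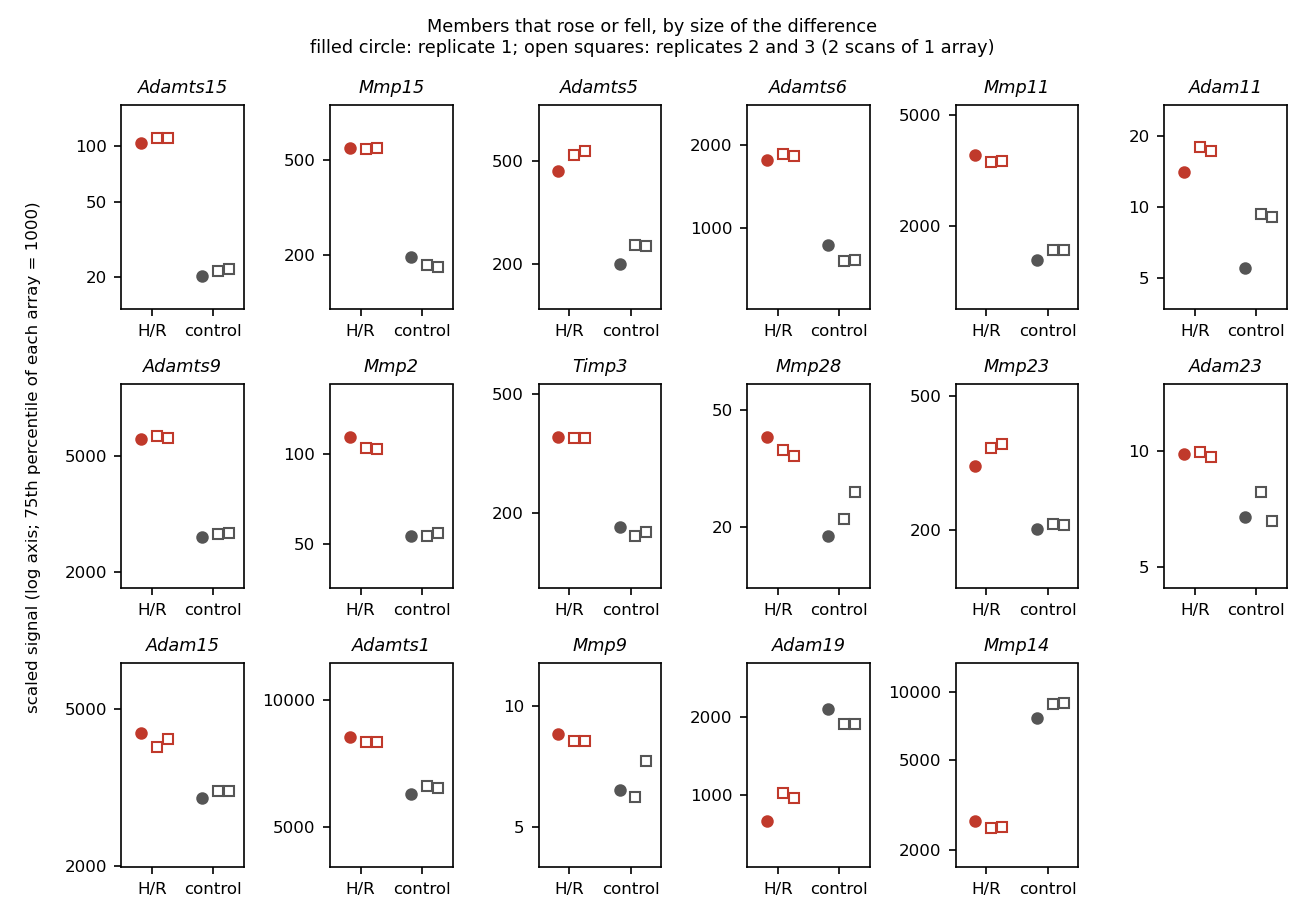
Scaled signal in every scan, on log axes, for the 17 members that rose or fell, ordered by log2 difference, with H/R left and control right. In each panel the 3 H/R scans lie on 1 side of the 3 control scans, from Adamts15 (5.12-fold higher in H/R) to Mmp14 (3.19-fold higher in control). The members were chosen by their adjusted p in these same scans, so this separation is no added support.

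Of the 4 TIMPs, 1 rose and 3 did not pass. Timp3 encodes the inhibitor that binds to the matrix and acts on ADAMTS enzymes and ADAM17 as well as MMPs. Its scaled signal was 359.7, 356 and 357 in H/R replicates 1 to 3, against 179, 167 and 173 in control replicates 1 to 3. The groups lay far apart with little spread inside each, and the difference was 1.04 ± 0.09 (2.05-fold, adjusted p = 0.00452). Timp1, which encodes a soluble inhibitor with growth-promoting activity, had 29288, 25074 and 24692 in H/R cells, against 32445, 36725 and 36712 in control cells. All H/R scans were lower, but the difference of -0.35 ± 0.13 did not pass (adjusted p = 0.114). It did pass under quantile scaling, at -0.41, and in a fit of the authors' deposited table, at -0.41. Timp2, which encodes the inhibitor that takes part in pro-MMP2 activation, had 18.96, 18.1 and 19.4 in H/R scans, against 41.03, 20.6 and 17.97 in control scans. Control array 1 stood apart above the other scans, and the difference of -0.58 ± 0.36 did not pass (adjusted p = 0.291). It was -1.12 and passed without both scans of control array 2, and was -0.03 without control array 1. Timp4, known for its expression in heart, had 36.6, 41.2 and 41.3 in H/R scans, against 55.3, 35.9 and 37.5 in control scans, again with control array 1 the highest, and differed by -0.21 ± 0.22 (adjusted p = 0.506). Bsg, which encodes basigin (EMMPRIN), a membrane glycoprotein that induces MMPs in neighbouring cells, had 32110.5, 25050.0 and 24922 in H/R scans, against 25754, 30396 and 30383 in control scans. The groups overlapped, and both of its probes differed by 0.02 (adjusted p = 0.945 and 0.941).

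Of the 6 ADAM genes with a metalloprotease active site, 5 were tested, 1 rose and 1 fell, the median being 0.02. Adam19, which encodes meltrin beta, a sheddase of neuregulins needed for heart valve and septum development in mice, had 793, 1018 and 980.3 in H/R replicates 1 to 3, against 2133, 1876 and 1877 in control replicates 1 to 3. All H/R scans were far below all control scans, and Adam19 fell by 1.17 ± 0.15 (control 2.25-fold higher, adjusted p = 0.00991). The call was lost without the filter on dim probes, which tests more probes (adjusted p = 0.0627, difference unchanged at -1.17). Adam15, which encodes metargidin, a protease with an integrin-binding motif, had 4345, 3996 and 4188 in H/R cells, against 2975, 3094 and 3091 in control cells. Its small rise of 0.48 ± 0.10 (1.39-fold, adjusted p = 0.0278) did not pass at 0.52 without both scans of H/R array 2, 0.50 without both scans of control array 2, 0.43 without H/R array 1 and 0.45 without control array 1, nor under median scaling, at 0.35. Adam9, a broad sheddase gene, had 179.9, 179 and 183 in H/R scans, against 185, 129 and 135 in control scans, and differed by 0.21 ± 0.18 with overlapping groups (adjusted p = 0.429). The fertility gene Adam1a differed by 0.02 ± 0.10 and Adam30 by -0.27 ± 0.13, and neither passed (adjusted p = 0.874 and 0.186). Adam34 had no usable spot in 1 file and was not tested.

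The 9 other ADAM genes, whose proteins lack the active site or are known mainly from the male reproductive tract, were mostly dim. Of 6 tested, 2 rose and 0 fell, the median being -0.02. Adam11 and Adam23 encode catalytically inactive ADAMs known as nerve cell receptors for LGI proteins. Adam11 had 14.1, 17.98 and 17.3 in H/R scans, against 5.50, 9.34 and 9.04 in control scans, 2 of them well above background. Every H/R scan was higher, and Adam11 rose by 1.15 ± 0.27 (adjusted p = 0.042). Adam23 had 9.87, 9.97 and 9.67 in H/R scans, against 6.73, 7.84 and 6.58 in control scans, none of which was well above background. The H/R scans all lay above the controls, with a fitted difference of 0.50 ± 0.09 (adjusted p = 0.0238). Both Adam11 and Adam23 entered the test through the H/R scans alone, and with only probes well above background in all 6 scans 0 of 3 other ADAMs rose. The call of Adam11 was lost at 0.99 without both scans of H/R array 2, 1.31 without H/R array 1 and 0.78 without control array 1 and that of Adam23 at 0.51 without both scans of H/R array 2, 0.55 without both scans of control array 2, 0.50 without H/R array 1, 0.46 without control array 1 and 0.44 without control replicate 3. Neither Adam11 nor Adam23 passed under quantile scaling, at 0.91 and 0.25, or in a fit of the authors' deposited table, also at 0.91 and 0.25. Adam23 did not pass under median scaling either, at 0.37. Adam6 was not tested, with 8.04, 9.70 and 8.26 in H/R scans, 2 of them well above background, against 1.72, 1.46 and 1.41 in control scans, 0 of them. All H/R scans were higher, by at least 1.70-fold when the control is set to the dimmest signal scored well above background. The epididymal gene Adam7 differed by -0.28 ± 0.12, Adam4 by -0.17 ± 0.12, Adam4l1 by 0.13 ± 0.09 and Adam3a by -0.23 ± 0.20, and none passed in limma (adjusted p between 0.162 and 0.443, 0 at an unadjusted p under 0.05). Adam4 and Adam4l1 are paralogs, so their probes may share RNA and their values are uncertain. Adam2 and Adam5 were scored well above background in 0 of 6 scans.

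The ADAMTS proteases that changed all rose. Of 8 on the array 7 were tested, 5 rose and 0 fell, the median being 1.104, while 16.2% of all coding genes tested rose and 9.62% fell. Without the filter on dim probes 3 ADAMTS proteases rose, and after normexp correction 0 did. Adamts15 encodes a protease of versican and aggrecan. It had 104, 110.0 and 109.9 in H/R replicates 1 to 3, against 20.1, 21.4 and 22.2 in control replicates 1 to 3. The scans inside each group lay close together, and Adamts15 rose by 2.36 ± 0.10 (5.12-fold, adjusted p = 0.00174), rank 47 in size among the rises of the 10001 coding genes. Adamts5, which encodes the main aggrecan-degrading enzyme of mouse cartilage, had 457, 527 and 545 in H/R cells, against 200.2, 237 and 235 in control cells. It rose by 1.19 ± 0.14 (2.28-fold, adjusted p = 0.0077), with the H/R scans all above the controls. Without the filter on dim probes its adjusted p was 0.0548. Adamts9, which encodes a versican-cleaving protease needed for heart development in mice, had 5699, 5841 and 5759 in H/R cells, against 2643, 2697 and 2715 in control cells. Its scans hardly differed inside each group, and it rose by 1.104 ± 0.090 (2.15-fold, adjusted p = 0.00384). Adamts6, also needed for heart development in mice, had 1761, 1863 and 1819.6 in H/R cells, against 861, 754 and 764 in control cells, and rose by 1.16 ± 0.11 (2.23-fold, adjusted p = 0.00514). Adamts1, another versican and aggrecan protease, had 8167, 7964 and 7966 in H/R cells, against 5989, 6241 and 6179 in control cells. All H/R scans were higher, by a small amount, 0.40 ± 0.09 (1.32-fold, adjusted p = 0.0374). That call was lost at 0.42 without both scans of H/R array 2, 0.43 without both scans of control array 2, 0.39 without H/R array 1 and 0.38 without control array 1, and with the replicate number as a block (adjusted p = 0.0546). Nor did Adamts1 pass under median scaling, at 0.28 (adjusted p = 0.133), or with the 75th percentile over spots (adjusted p = 0.0687). Without the filter on dim probes its adjusted p was 0.141.

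Adamts12, which encodes a protease of cartilage oligomeric matrix protein, differed by 0.21 ± 0.10 and Adamts7, which cleaves the same protein, by 0.19 ± 0.15, and neither passed (adjusted p = 0.193 and 0.399). Adamts19 was scored well above background in 0 of 6 scans. The ADAMTS-like genes encode matrix proteins of similar build with no protease domain. None of the 3 passed in limma (2 had an unadjusted p under 0.05). Adamtsl3 had 87.98, 83.8 and 85.96 in H/R scans, against 64.2, 46.8 and 48.9 in control scans, wholly above, and differed by 0.64 ± 0.16 (adjusted p = 0.0503). It passed at 0.85 without control array 1 and under 8 other alternatives. Adamtsl5 had 51.1, 40.96 and 39.2 in H/R scans, against 66.2, 65.1 and 64.98 in control scans, wholly below, and differed by -0.54 ± 0.14 (adjusted p = 0.056). It passed under 8 alternatives, among them quantile scaling at -0.63. Adamtsl4, which encodes a fibrillin-associated protein, differed by -0.28 ± 0.12 (adjusted p = 0.15).

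Promoters of the members that rose are shown for contrast with the MMP cluster. The GC box, the letters GGGCGG or CCGCCC, which factors such as Sp1 bind, was present in the 250 bases before the start in 8 of the 9 risen members with a promoter sequence, in 0 of the 9 cluster genes, and in 30.5% of all 33469 promoters. Among members with a promoter sequence, 5 of the 13 not called and the 1 that fell (Adam19) also held it. The other members that rose, of 15 in all, had no promoter sequence, among them Adamts15, Adamts5 and Mmp2. Whether the letters go with a rise was not tested. The AP-1 letters were present in 0 of those 9 risen members. The letters ACGTG or CACGT, the core of the hypoxia response element, were present in 1 of the 9 (Mmp15), in 4 of the 9 cluster genes and in 16.6% of all promoters. Overlapping matches of the same motif were counted apart, and the AP-1 and hypoxia letters share bases in Mmp1. Of the 8 with a GC box, 5 are shown as examples from different roles, 120 bases before the start each, with GC boxes in capitals.
Adamts9, chr4:127019877-127019996, minus strand: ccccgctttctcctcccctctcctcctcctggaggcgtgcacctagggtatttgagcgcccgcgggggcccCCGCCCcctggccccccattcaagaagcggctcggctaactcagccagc
Adamts1, chr11:38427385-38427504, minus strand: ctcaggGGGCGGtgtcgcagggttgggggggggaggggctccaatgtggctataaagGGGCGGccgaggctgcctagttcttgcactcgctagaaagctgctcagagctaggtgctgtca
Mmp11, chr20:12730164-12730283, plus strand: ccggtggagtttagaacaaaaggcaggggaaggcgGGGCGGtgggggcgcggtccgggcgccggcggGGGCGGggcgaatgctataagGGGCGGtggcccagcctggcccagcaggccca
Timp3, chr7:19459559-19459678, minus strand: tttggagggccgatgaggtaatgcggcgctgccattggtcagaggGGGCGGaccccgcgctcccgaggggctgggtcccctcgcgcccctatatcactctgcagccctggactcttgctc
Adam15, chr2:177062850-177062969, minus strand: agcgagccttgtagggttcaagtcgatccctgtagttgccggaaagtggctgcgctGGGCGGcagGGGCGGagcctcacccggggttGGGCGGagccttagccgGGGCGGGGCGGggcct
These letters describe the windows and show no binding.

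The partners of these enzymes were described with a list of 41 genes that activate, carry or inhibit them. Of 27 on the array 20 were tested, 3 rose and 3 fell, against 16.2% and 9.62% of all coding genes, and the median difference was 0.12. Of the 5 tested in plasminogen activation, 2 rose and 2 fell. Over the whole list 1 fell when H/R array 1, H/R array 2 or control array 2 was left out, each array with all its scans. Plg, which encodes plasminogen, had 123, 132 and 135 in H/R replicates 1 to 3, against 23.9, 26.96 and 25.9 in control replicates 1 to 3. The groups lay far apart, and Plg rose by 2.35 ± 0.11 (5.09-fold, adjusted p = 0.00182). Plat, which encodes tissue plasminogen activator, had 4396, 5105 and 5139 in H/R cells, against 2648, 3022 and 3046 in control cells, and rose by 0.74 ± 0.13 (adjusted p = 0.0203). These are transcripts of the plasmin precursor and of an activator of it, and neither protein was measured. The antiplasmin gene Serpinf2 fell by 0.65 ± 0.14 (adjusted p = 0.0349), with 15.8, 19.6 and 20.8 in H/R cells, against 28.1, 27.8 and 28.2 in control cells. Plaur, which encodes the urokinase receptor, had 2756, 2537 and 2574 in H/R cells, against 3887, 4450.5 and 4423 in control cells, and fell by 0.65 ± 0.11 (adjusted p = 0.0206). The difference of the urokinase gene Plau was 0.62 ± 0.24 and was not called (adjusted p = 0.131). The call of Plat was lost at 0.63 without both scans of H/R array 2, 0.85 without H/R array 1 and 0.65 without control array 1, that of Plaur at -0.59 without both scans of H/R array 2, -0.55 without both scans of control array 2 and -0.70 without H/R array 1, and that of Serpinf2 at -0.83 without both scans of H/R array 2, -0.66 without both scans of control array 2, -0.48 without H/R array 1 and -0.65 without control array 1. Serpinf2 turned to 0.72 after normexp correction.

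Of the 4 tested partners that handle ADAM17 or ADAM10, 1 rose and 1 fell. Rhbdf2 encodes iRhom2, which carries ADAM17 to the cell surface. It had 1093, 1003 and 1022 in H/R replicates 1 to 3, against 411, 417 and 418 in control replicates 1 to 3, and rose by 1.34 ± 0.10 (2.54-fold, adjusted p = 0.00298) with no overlap. Frmd8, which encodes a protein that stabilises the iRhoms, differed by -0.01 ± 0.10 (adjusted p = 0.936). Tspan33, which encodes a tetraspanin that binds ADAM10, had 201, 178 and 186 in H/R cells, against 399, 399 and 403 in control cells, and fell by 1.06 ± 0.10 (control 2.09-fold higher, adjusted p = 0.00514), while the related Tspan5 differed by -0.09 ± 0.16 (adjusted p = 0.714). None of the 3 proprotein convertases, 5 cathepsins, 2 other inhibitors or 1 astacin protease tested passed in limma (4 of the 11 had an unadjusted p under 0.05). Among them Furin, whose product activates several MMPs and ADAMs, differed by -0.29 ± 0.09 (adjusted p = 0.0795), and the astacin gene Tll1 by 0.38 ± 0.10 (adjusted p = 0.0561).

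**Figure D4:**
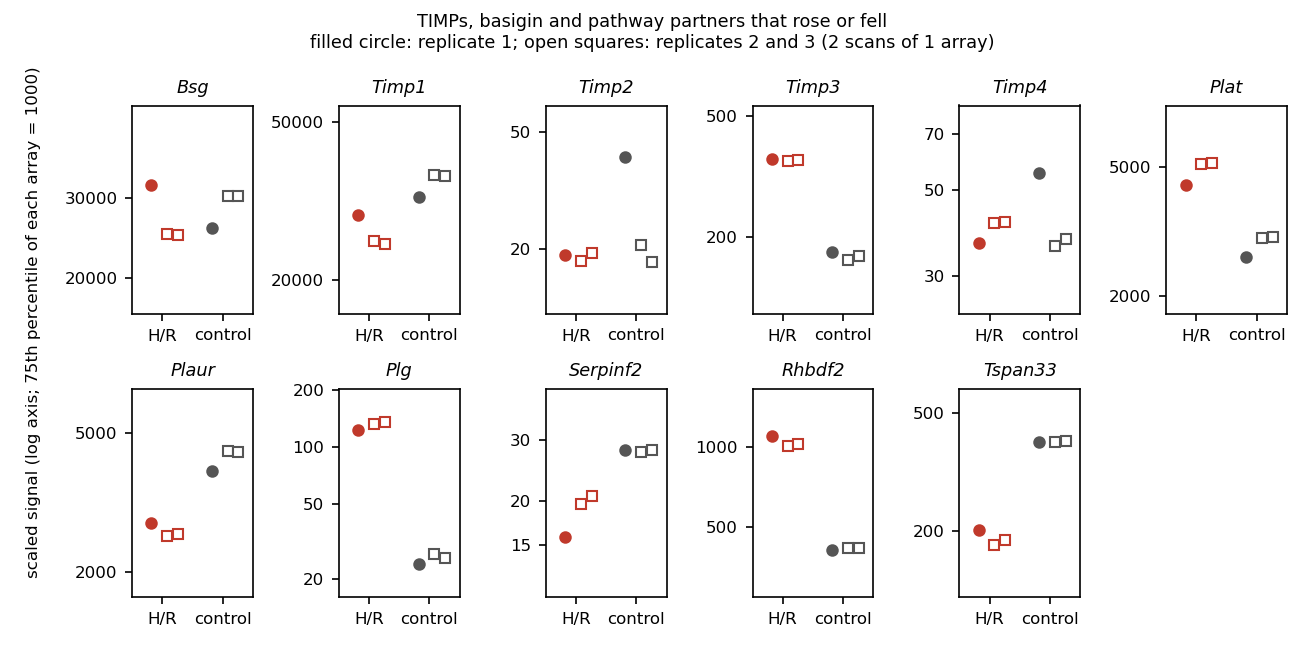
Scaled signal in every scan, on log axes, for basigin, the 4 TIMPs and the 6 pathway partners that rose or fell, with H/R left and control right. Plg shows the widest gap, with 123, 132 and 135 in H/R scans and 23.9, 26.96 and 25.9 in control scans, while Bsg, Timp2 and Timp4 overlap.

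Within the first scan, which held replicates 1 and 2 of both groups, all 17 changed members passed. In the second scan, with 1 sample per group and no test, all 17 kept their direction. These scans are of the same arrays on which the 17 were called, so neither outcome is independent support. The members whose call was lost under normexp correction alone were Adamts6, Adamts9, Adamts15, Mmp2, Mmp11, Mmp14, Mmp15 and Timp3, among all alternatives that gave them an adjusted p.

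**Figure D5:**
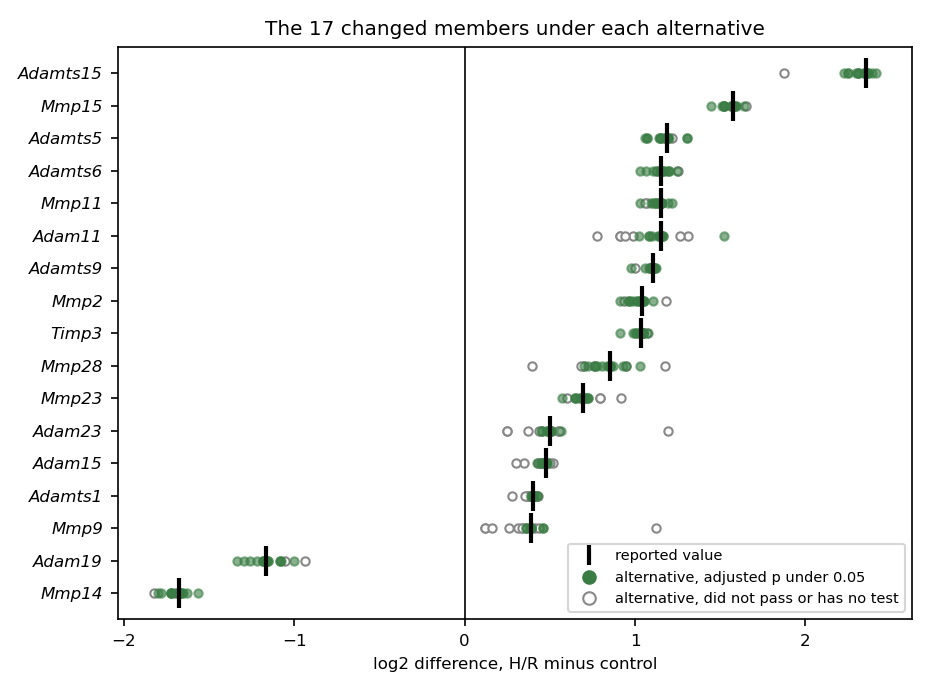
Log2 difference between H/R and control for the 17 changed members under each alternative setting, with the reported value as a black bar, filled points where the alternative passed the threshold and open points where it did not or had no test. All points lie on the same side of 0 as the reported value, and Mmp9, the smallest rise, ranges from 0.12 to 1.12.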

How the data were processed

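Total RNA was labelled with Cy3 and read on 1-colour Agilent arrays with probes for rat coding and long noncoding RNAs. The deposited scanner files hold the processed signal, a background-corrected intensity per spot that the authors obtained with Agilent Feature Extraction 11.0.1.1, per the submitters' processing notes. The spots' other intensities and flags are from the same deposited files. A deposited log2 table from the authors covers 16841 probes. Its columns correlate with the log2 scanner signal at r of 0.99982 to 0.99994 across 16762 probes, and their medians are 9.18 to 9.19; the sources used here do not say how it was centred and filtered.

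Here, log2 processed signals were averaged over the spots of a probe without outlier flags, and each array was shifted to set its 75th percentile to 0. A probe counted as well above background where most of its spots did, and 15899 of 24578 probes were tested with limma 3.58.1 (R 4.3.3) on 2 arrays per group, replicates 2 and 3 averaged, with no covariate. P-values were adjusted by Benjamini-Hochberg over all of them, with a threshold of 0.05. The lowest bound of a dim group was the dimmest signal scored well above background on each array. The procedure was tested on simulated data with 2 arrays per group, in which 200 of 15899 probes were changed. It recovered 2% of log2 changes of 0.5, 58% of 1, 70% of 2 and 96% of 3. Of its 116 calls 3 were false. In the data 3769 of the 15899 probes were called, a larger share than was changed in the simulation. The adjustment depends on that share, so these percentages may not hold for the data. A member that was not called may therefore still have changed, by a small or a larger amount.

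Genes were named from RefSeq by accession, which gave a symbol to 14274 of 15323 coding probes. The arrays were designed on an older rat build, so their coordinates are not printed; promoters come from RefSeq on GRCr8, where 34 members had an entry. The text names every member past the threshold, all TIMPs, Bsg, Mmp2, Mmp9 and Mmp14, the members with the highest signal of each role among the rest, and every partner past the threshold; other members and partners named outside it were added after their values were seen. The members, roles, partner list and marker lists were chosen with earlier results of these data known. An item of the partner list is not reported here. Alternatives covered background correction, scaling, the filter on dim probes, outlier spots, probe choice, the scans, the replicate block, the authors' table and each array left out.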

Additional observations from a re-analysis of the deposited data

How the results depend on the processing

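The precision is limited by 2 arrays per group. Among members, 15 rose and 2 fell; in every alternative that gave them a value, all 17 kept their direction (16 of the 17 are in the authors' table and 14 passed the stricter filter). The cause of each change below was not tested, except that no filter tests more probes and leaving out an array leaves fewer. Apart from the filter on all 6 scans, no share of all coding genes is given for these alternatives. The counts under them therefore do not tell the members from other genes. With normexp correction, which used median spot signals because mean signals were not in the files used here, 0 members rose and 0 fell, 0 of every role and 0 partners in either direction, and Serpinf2 turned to 0.72 (adjusted p = 0.586). Without the filter 9 members rose and 1 fell (secreted MMPs 3 rose, ADAMs with an active site 0 rose and 0 fell, other ADAMs 1 rose, ADAMTS proteases 3 rose, partners 1 fell). With the authors' values, 4 members fell (secreted MMPs 3 rose, inhibitors 1 fell, ADAMs with an active site 2 fell, other ADAMs 0 rose), and with quantile scaling 5 fell (inhibitors 1, ADAMs with an active site 2, ADAMTS-like 1; other ADAMs 0 rose). Median scaling left 0 ADAMs with an active site and 1 other ADAM rising and 1 ADAMTS-like gene falling. It moved the median difference of all probes to -0.06, against 0.07 as reported, 0.00 with quantile scaling and 0.33 after normexp. With 6 scans as separate samples 6 members fell (inhibitors 1, other ADAMs 1, ADAMTS-like 2, with 1 ADAMTS-like rising), while 8 partners rose and 6 fell; with the scan as a block the same member and role counts fell, 1 ADAMTS-like gene and 7 partners rose, and 5 partners fell. Requiring all 6 scans above background left 0 other ADAMs rising, with 1 ADAMTS-like gene rising and 1 falling. The mean of all probes and, chosen after seeing the data, the 75th percentile over spots also gave 1 ADAMTS-like gene rising and 1 falling. With the replicate number as a block, 14 members rose and 3 fell, and 1 ADAMTS-like gene rose and 1 fell. The deviations of same-numbered arrays correlated at 0.153, but with 2 pairs the samples share only a number.

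Leaving out 1 array or scan at a time, members rising ranged between 8 and 16 and falling between 2 and 3. By role the range was 2 to 5 rising for secreted MMPs, 0 to 1 falling for the inhibitors, 0 to 1 rising for ADAMs with an active site, 0 to 2 rising for other ADAMs and 0 to 1 rising for ADAMTS-like genes, and partners falling ranged from 1 to 3; where 1 array was left in a group, it was assumed to vary like the other group. The second scan alone has no test.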

Other observations

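Spots of 2 members stood apart within 1 group. Mmp21, which was not tested, had scaled signals of 3.57, 3.32 and 3.53 in H/R scans, against 1.90, 6.11 and 32.4 in control scans, and control replicate 3, the only scan scored well above background, is a second scan of the array that gave control replicate 2. Adam34 had a processed signal of 15.4, 28.9 and 28.96 in H/R files, against 773, 18.5 and 23.3 in control files, where the spot of 773 carried the scanner's flag for uneven signal and was left out.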
